A study of Mus musculus with 4 samples.

Results

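Genes of bone morphogenetic protein (BMP) and growth differentiation factor (GDF) signalling were read in skeletal muscle dissected from mouse embryos at E13.5. The set holds 10 genes, 7 ligands (Bmp2, Bmp4, Bmp5, Bmp7, Gdf5, Gdf11 and Mstn) and 3 secreted antagonists (Fst, Nog and Grem1). Every probe set that the array's annotation names with 1 of these symbols alone was taken. Of the 10 genes, 9 had a probe set, 14 probe sets in all, among 18193 named genes on the array. No probe set used here carries the name Mstn, so myostatin was not analysed here and the group is described as BMP, GDF and antagonist genes. The 4 groups were MyoD-/- limb muscle, WT limb muscle, Myf5-/- back muscle and WT back muscle, all at E13.5 and all labelled BALB/c, with the Myod or the Myf5 gene null in the mutants. Each group had 1 Affymetrix array, so no value has a replicate error and no p-value was computed. Neither the number of embryos in each piece nor the part of Myod1 or Myf5 that the mutant alleles lack is stated in the labels.

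BMPs and GDFs are secreted dimers of the TGF-beta superfamily that assemble type I and type II receptor kinases on the cell surface. BMPs and Gdf5 signal mainly through Smad1, Smad5 and Smad9, whereas Gdf11, myostatin and the activins signal through Smad2 and Smad3, and each set joins Smad4 to enter the nucleus. In the embryo, BMPs pattern the limb and form cartilage, and in muscle they favour growth of the progenitor pool over differentiation, while follistatin, noggin and gremlin bind ligands outside the cell and keep them from their receptors.

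Signals are intensities brought to the same trimmed mean of 500 on each array. Signals under 100 were read as no level, so that a difference from such a signal is only a bound ("at least N-fold"). A gene was counted where its arrays differed by 2-fold or more and the brighter array reached 200. Where a gene has several probe sets, the brightest on average is called its main probe set. Probe sets of a gene gave log2 ratios with a median SD, over genes with several probe sets that reached 100 in both arrays, of 0.35 in the limb pair, 0.32 in the back pair and 0.35 between the wild types. This spread covers probes, not animals, and the number of arrays limits the precision. Myod1 was 688 in MyoD-/- limb and 1438 in WT limb, and its second probe set gave 92 and 209. The main reading was 2.09-fold lower, less than the muscle genes Ckm (2.70-fold) and Tnnc2 (2.34-fold), so it does not by itself establish the genotype. Myf5 was 583 in the array labelled Myf5-/- back and 508 in WT back, so its signal does not mark the genotype. Every direction given for either mutant array rests on its label. A probe set that lies outside the deleted part of a gene cannot show the deletion. Of 18 muscle markers 17 reached 100 in every array (Myf6 was under 100 in all 4), but cartilage, tendon, skin and blood genes did too, so the pieces held more than muscle. In bulk pieces, fewer cells of a type and less RNA per cell cannot be told apart. The 3 prime over 5 prime signal ratio of Gapdh was 8.06 in MyoD-/- limb and 12.2 in WT limb, and 9.46 in the array labelled Myf5-/- back and 6.45 in WT back. That of Actb was 3.86 in MyoD-/- limb and 6.88 in WT limb, and 4.28 in the array labelled Myf5-/- back and 3.2 in WT back. A higher ratio is a sign of poorer RNA or labelling. The ratio was lower in MyoD-/- limb and higher in the array labelled Myf5-/- back than in their wild types. It differed most between WT limb and WT back. The part of these differences in the results below was not tested.

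Because MyoD and Myf5 are basic helix-loop-helix factors that bind the E-box, the promoters of the members were searched for the letters CANNTG, which read the same on both strands. RefSeq's table for GRCm38.p6 held 5 of the 10 members, and the 4 with a measured signal are shown, 250 bases before to 50 after the start site, 5 prime to 3 prime, with each CANNTG in capitals.
Grem1 promoter, chr2:113758599-113758898, minus strand: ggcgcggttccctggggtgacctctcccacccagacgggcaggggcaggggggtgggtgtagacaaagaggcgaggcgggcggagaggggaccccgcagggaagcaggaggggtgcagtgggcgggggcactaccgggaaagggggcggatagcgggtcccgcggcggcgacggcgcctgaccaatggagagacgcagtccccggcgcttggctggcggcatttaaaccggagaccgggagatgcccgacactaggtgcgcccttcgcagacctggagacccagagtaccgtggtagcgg
Bmp5 promoter, chr9:75775115-75775414, plus strand: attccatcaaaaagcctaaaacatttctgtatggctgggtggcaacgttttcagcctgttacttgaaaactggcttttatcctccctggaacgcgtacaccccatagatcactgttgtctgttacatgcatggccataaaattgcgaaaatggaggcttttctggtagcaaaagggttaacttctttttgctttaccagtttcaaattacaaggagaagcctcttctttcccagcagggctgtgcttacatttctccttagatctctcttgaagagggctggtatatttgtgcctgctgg
Gdf11 promoter, chr10:128891669-128891968, minus strand: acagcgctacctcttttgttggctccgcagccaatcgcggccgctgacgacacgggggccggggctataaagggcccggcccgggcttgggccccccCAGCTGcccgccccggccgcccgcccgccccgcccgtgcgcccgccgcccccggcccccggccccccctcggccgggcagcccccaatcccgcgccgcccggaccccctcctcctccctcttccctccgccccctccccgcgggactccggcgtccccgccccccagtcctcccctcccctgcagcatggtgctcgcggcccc
Bmp4 promoter, chr14:46390620-46390919, minus strand: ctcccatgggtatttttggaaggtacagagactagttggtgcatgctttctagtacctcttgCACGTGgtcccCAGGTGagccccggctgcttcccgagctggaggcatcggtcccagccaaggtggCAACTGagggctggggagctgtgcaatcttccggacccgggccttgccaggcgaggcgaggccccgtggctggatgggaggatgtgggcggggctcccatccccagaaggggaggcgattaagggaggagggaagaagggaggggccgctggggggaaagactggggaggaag
No CANNTG was found in the windows of Grem1 and Bmp5. The Gdf11 window held 1, a CAGCTG whose first base lies at -153, and the Bmp4 window held 3, with first bases at -188, -177 and -123. Over all 32851 promoters of this length in the table, 72.3% held at least 1 CANNTG, 17.6% held 3 or more and 16.3% held a CAGCTG. The Mstn window, for which there is no array value, held 4, as did or exceeded 6.49% of promoters. A match is a run of letters and not a bound site, and no match says only that the letters are not in this window.

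Gdf5, the ligand that marks the zones where joints form, had the widest range of the members. Its signal was 1304 in MyoD-/- limb, 726 in WT limb, 267 in the array labelled Myf5-/- back and 53 in WT back. The order thus put both limb arrays above both back arrays, and each mutant array above its own wild type. In the limb pair the ratio was 1.80-fold (log2 0.85), short of 2-fold. In the back pair it was at least 2.67-fold higher, and WT limb was at least 7.26-fold above WT back. Gdf5 is read by a single probe set, so no second reading stands beside it. Most cartilage and joint markers were on the same side as Gdf5 in the limb pair. There 13 of 17 were above 0, against 46.1% of all genes. The median was 0.10, smaller than the spread between probe sets of a gene, and 0 reached 2-fold by the main probe set. The 4 below 0 were Barx1 (-0.81), Sfrp2 (-0.35), Erg (-0.19) and Sox6 (-0.02). In the back pair most of the cartilage and joint markers were on the other side from Gdf5. Their summed signal was 31541 in MyoD-/- limb and 29973 in WT limb, and 19542 in the array labelled Myf5-/- back and 33221 in WT back, where Col9a2, Col11a2 and Matn3 were under 100 in the mutant array. Of the back sums, Sfrp2 alone gave 13382 in the array labelled Myf5-/- back and 10339 in WT back. Of the 18 cartilage and joint markers measured in the back pair, 15 were below 0 on the log2 ratio scale, with a median of -1.10. By the main probe set 9 were counted lower and 1 higher, beside 2.48% and 5.5% of all genes. The 3 above 0 were Barx1 (at least 2.07-fold higher), Sfrp2 (0.37) and Comp (0.17). What part cartilage and joint tissue has in the Gdf5 values was not tested.

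Bmp5, a ligand of the developing skeleton, was 1538 in MyoD-/- limb, 1183 in WT limb, 1048 in the array labelled Myf5-/- back and 1917 in WT back. WT back was the brightest array and the labelled mutant back the dimmest. The log2 ratio was 0.38 in the limb pair and -0.87 in the back pair. A dimmer probe set had the same directions, at 148 in MyoD-/- limb and 88 in WT limb, and at 62 in the array labelled Myf5-/- back and 400 in WT back. The second reading was thus at least 4.0-fold lower in the labelled mutant back, beyond the main reading. The third probe set reached 100 in WT limb alone, at 127.

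Bmp7, which acts in limb, kidney and eye development, was 1001 in MyoD-/- limb, 654 in WT limb, 466 in the array labelled Myf5-/- back and 586 in WT back. The log2 ratios were 0.62 in the limb pair and -0.33 in the back pair. The second probe set did not show the limb difference, at 299 in MyoD-/- limb and 320 in WT limb, nor much of the back difference, at 216 in the array labelled Myf5-/- back and 227 in WT back. The third probe set was above 100 in WT back alone, at 168.

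Bmp2 and Bmp4 are closely related ligands of early limb and skin. Bmp2 was 573 in MyoD-/- limb, 720 in WT limb, 356 in the array labelled Myf5-/- back and 484 in WT back, with log2 ratios of -0.33 and -0.44 in the limb and back pairs. It was brighter in both limb arrays than in either back array, and WT limb over WT back gave 0.57. Bmp4 was 963 in MyoD-/- limb, 849 in WT limb, 1040 in the array labelled Myf5-/- back and 931 in WT back. Its log2 ratios were 0.18 and 0.16 in the limb and back pairs and -0.13 between the wild types, each smaller than the spread between probe sets of a gene.

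Gdf11, which sets position along the trunk and is the nearest relative of myostatin, was dim: 78 in MyoD-/- limb, 133 in WT limb, 217 in the array labelled Myf5-/- back and 123 in WT back. Only the labelled mutant back array was above 200. The back pair gave a log2 ratio of 0.82, and the limb pair at least 1.33-fold lower in MyoD-/- limb, near the floor. Both depended on the processing. After loess the log2 ratio was 0.31 in the back pair and -0.27 in the limb pair. With a floor of 200 it was 0.12 in the back pair and 0 in the limb pair.

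Of the antagonists, follistatin (Fst) binds activins, myostatin and Gdf11 and is made by embryonic muscle. It was 1326 in MyoD-/- limb, 985 in WT limb, 671 in the array labelled Myf5-/- back and 1332 in WT back, and so had the same order of arrays as Bmp5. Its log2 ratio was 0.43 in the limb pair and -0.99 in the back pair, just short of 2-fold. The second probe set was flatter, at 407 in MyoD-/- limb and 369 in WT limb (0.14), and at 373 in the array labelled Myf5-/- back and 427 in WT back (-0.19). Of 17 muscle markers measured in each pair, 14 had a log2 ratio below 0 in the limb pair and 15 in the back pair. Of all genes, 46.1% were above 0 in the limb pair and 53.8% in the back pair. The 14 include Myod1 (-1.06), the gene mutated in that array. Myf5 went the other way there, at 1019 in MyoD-/- limb and 506 in WT limb (1.01). The muscle markers summed to 62245 in MyoD-/- limb and 93255 in WT limb, and to 117034 in the array labelled Myf5-/- back and 180424 in WT back. Fst was on the same side as the muscle markers in the back pair and on the other side in the limb pair.

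Gremlin (Grem1), the antagonist that sustains outgrowth of the limb bud, was 274 in MyoD-/- limb, 604 in WT limb, 487 in the array labelled Myf5-/- back and 333 in WT back. It was brightest in WT limb and dimmest in MyoD-/- limb. It was 2.20-fold lower in MyoD-/- limb (log2 -1.14), while the back pair gave 0.55 and WT limb over WT back 0.86. Grem1 has 1 probe set, of the kind whose name marks probes that can match several transcripts, and with a pseudocount of 100 in place of the floor the limb ratio was -0.91. Noggin (Nog), which binds BMPs during joint and somite formation, was under 100 in all 4 arrays, between 9.3 and 33, so no ratio is given.

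**Figure D1:**
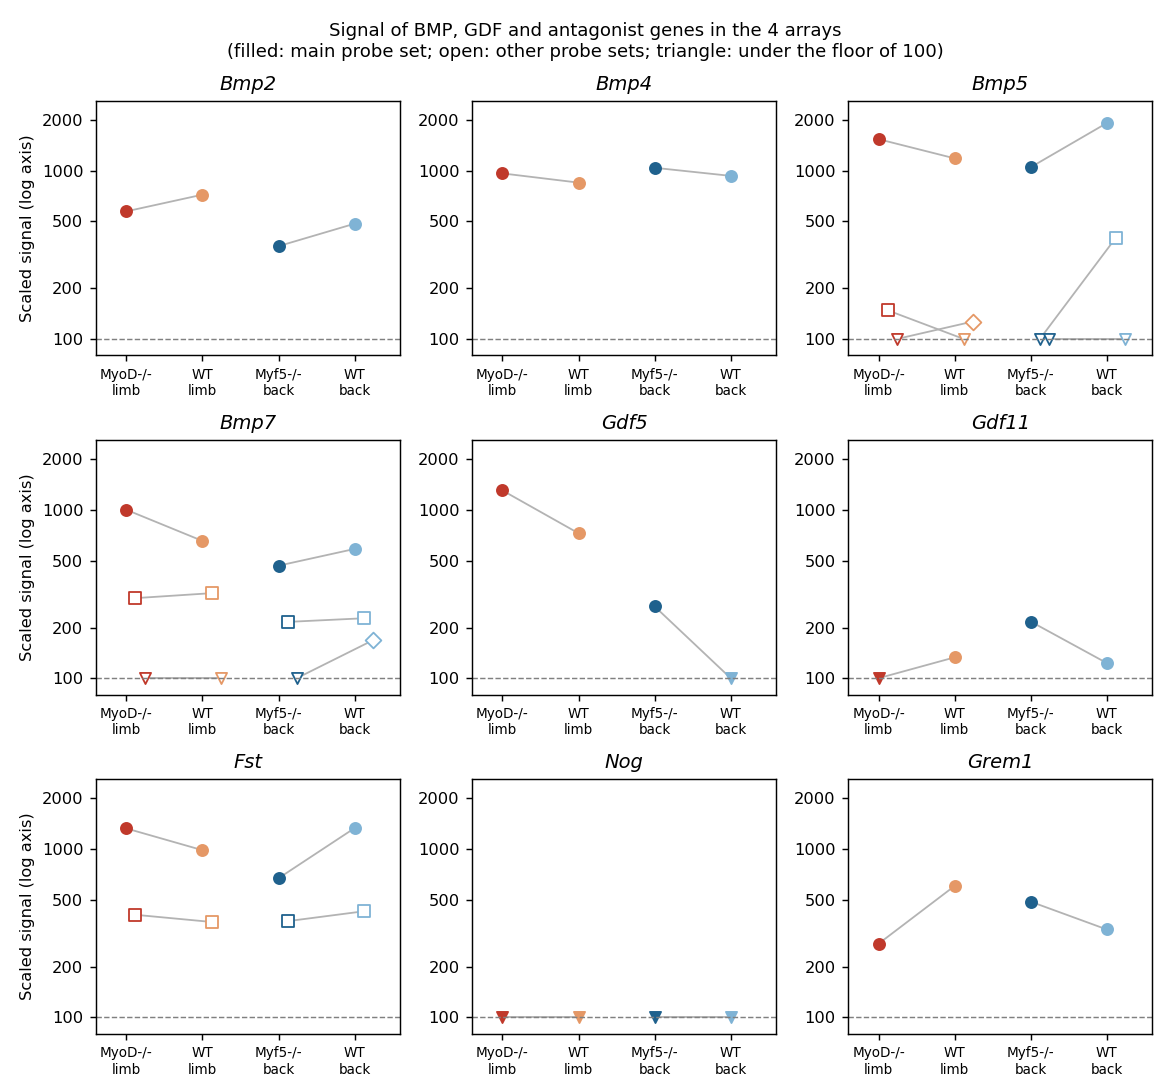
Scaled signal (log axis) of each member in MyoD-/- limb, WT limb, the array labelled Myf5-/- back and WT back; filled points are the main probe set, open points the others, triangles signals under the floor of 100, and lines join the arrays of a pair. Gdf5 spans 53 to 1304, Bmp4 stays between 849 and 1040, and Nog is under 100 throughout.

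In the comparison of MyoD-/- limb with WT limb, 1 of the 8 members with a signal of 100 or more in 1 of the arrays was counted, Grem1, which was lower. Among all 14496 genes so measured, 7.5% were counted in either direction, 2.3% higher and 5.19% lower, so a single call among 8 genes is no result about the group. Of the 8 members, 5 had a log2 ratio above 0 and 3 below, with a median of 0.28, against 46.1% of all genes above 0 and a median of -0.04. Among the 11344 genes that reached 200 in 1 of the limb arrays, 6.18% had a ratio as large as that of Grem1 in either direction, 12.8% as large as that of Gdf5 and 21.5% as large as that of Bmp7.

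In the comparison of the array labelled Myf5-/- back with WT back, 1 of the 8 members was again counted, Gdf5, which was higher. The share of all 14684 measured genes counted was 7.98%, with 5.5% higher and 2.48% lower. Of the 8 members, 4 were above 0 and 4 below, with a median of -0.08, against 53.8% of all genes and a median of 0.05. Of the 11633 genes at 200 or more in 1 of the back arrays, 2.70% had a ratio as large as the bound for Gdf5, 10.3% as large as that of Fst and 12.7% as large as that of Bmp5. The call for Gdf5 rests on a WT back signal under the floor: its log2 ratio was 0.91 after loess and 0.42 with a floor of 200, both under 2-fold, and 2.33 with a floor of 50.

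Between the wild types, 1 of the 8 members was counted, again Gdf5, higher in WT limb. The share of all 14605 measured genes counted was 8.8%, with 5.3% higher in WT limb and 3.5% higher in WT back. Only 0.114% of the 11444 genes at 200 or more in 1 of these arrays had a ratio as large as that of Gdf5, and its log2 ratio lay between 1.86 and 3.77 over the alternatives tried. Grem1 (0.86) and Bmp2 (0.57) were brighter in WT limb, and Bmp5 (-0.70) and Fst (-0.44) in WT back, none of them by 2-fold in the main probe set. The second probe set of Bmp5 gave 88 in WT limb and 400 in WT back. This comparison uses the same wild-type arrays as the mutant comparisons, so the sets of ratios are not independent.

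**Figure D2:**
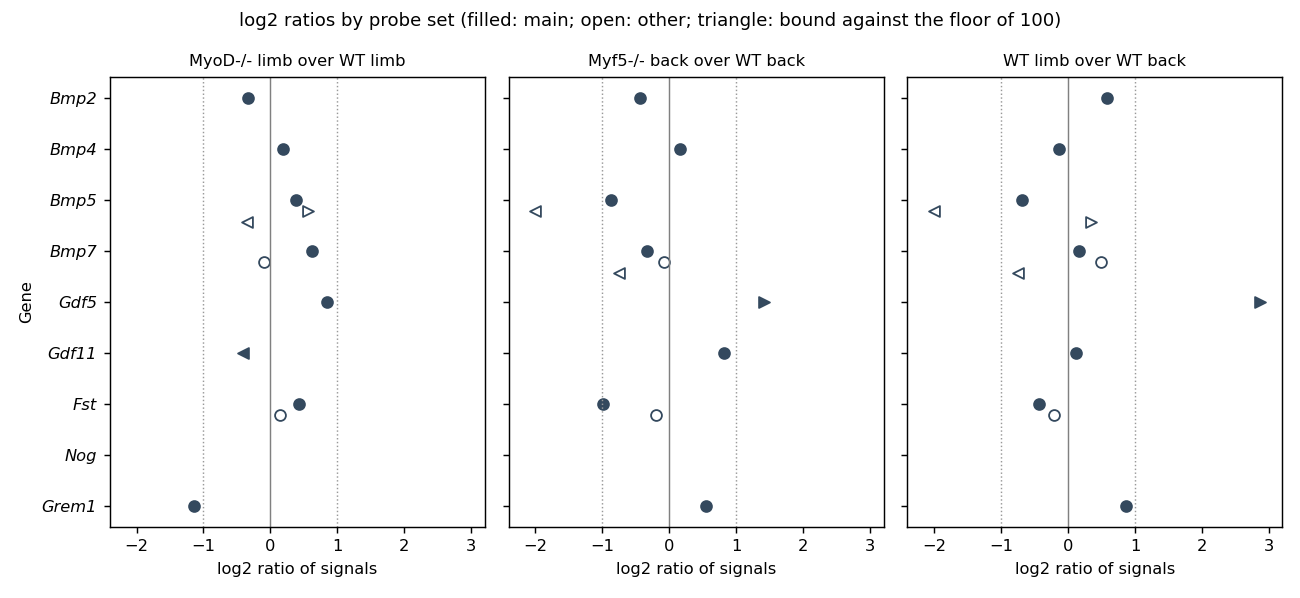
The log2 ratio of signals (x axis) of each member (y axis) in the 3 comparisons, for the main probe set (filled) and the others (open), with triangles for bounds against the floor of 100 and dotted lines at 2-fold. Among main probe sets only Grem1 in the limb pair (-1.14) and Gdf5 in the back pair (at least 2.67-fold) and between the wild types (at least 7.26-fold) pass 2-fold.

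The limb pair and the back pair share no array, and several members went opposite ways in them. The log2 ratio in the limb pair minus that in the back pair was 1.42 for Fst, 1.25 for Bmp5 and 0.94 for Bmp7, and -1.69 for Grem1. Among the 10715 genes at 100 or more in all 4 arrays and 200 or more in 1, 58.5% had opposite signs in the pairs, and 14.0% differed by 1 or more. As large a difference as that of Grem1 was found for 2.62% of these genes, as that of Fst for 5.03%, as that of Bmp5 for 7.52% and as that of Bmp7 for 16.0%. The difference was 0.11 for Bmp2 and 0.02 for Bmp4. The difference between the pairs joins a difference of mutated gene with a difference of body region and was not tested.

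**Figure D3:**
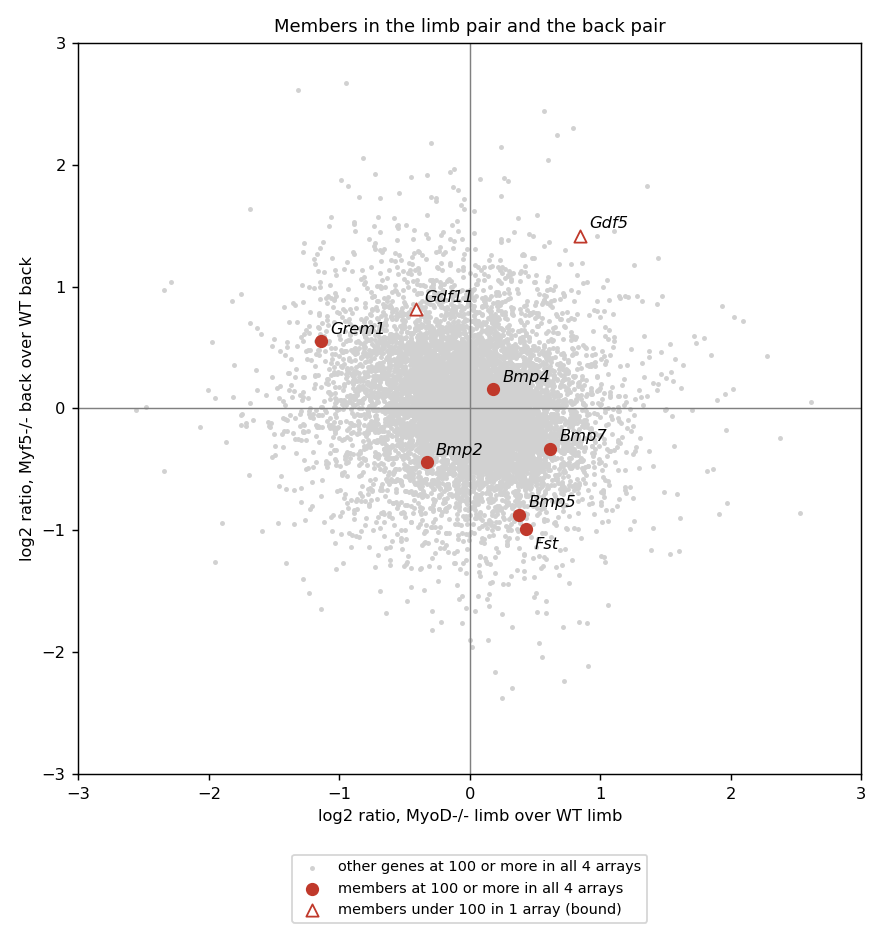
Each gene's log2 ratio of MyoD-/- limb over WT limb (x axis) against that of the array labelled Myf5-/- back over WT back (y axis), with members in red, bounds as open triangles and other genes at 100 or more in all 4 arrays in grey (1 gene lies outside the axes). Bmp5 and Fst lie together at 0.38 and 0.43 on the x axis and -0.87 and -0.99 on the y axis, opposite to Grem1 at -1.14 and 0.55.

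Other genes of the pathway were read by list, and the counts are of main probe sets. Of all genes, 2.3% were counted higher and 5.19% lower in the limb pair, and 5.5% higher and 2.48% lower in the back pair. Between the wild types 5.3% were counted higher and 3.5% lower in WT limb. With lists this short, 1 call is no result about a list. The receptors were mostly flat in the limb pair: of 14 measured, 8 were above 0, 1 was at least 2-fold higher and 0 were at least 2-fold lower, with a median of 0.02. The exception was Bmpr1b, the type I receptor of cartilage condensations and the preferred receptor of Gdf5, at 1374 in MyoD-/- limb and 661 in WT limb (1.06). A dimmer probe set of Bmpr1b gave 239 in MyoD-/- limb and 228 in WT limb (0.07). In the back pair, 1 of 15 receptors was at least 2-fold higher and 1 lower, with a median of 0.00. Hjv, a BMP co-receptor of muscle and liver, was 667 in the array labelled Myf5-/- back and 1427 in WT back (-1.10), and its second probe set gave -1.12. The summed signal of fetal liver and yolk sac markers was 628 in the array labelled Myf5-/- back and 2736 in WT back. Much of it was Afp, at 5 in the array labelled Myf5-/- back and 1651 in WT back. Of the 5 measured, 3 were below 0 and 2 above, Apoa1 (0.37) and Apoa2 (at least 1.99-fold higher). Of 17 muscle markers 15 were below 0 in this pair as well. The part of liver or muscle in the Hjv value was not tested. Tgfbr1, the type I receptor that can serve Gdf11, was 2077 in the array labelled Myf5-/- back and 3948 in WT back (-0.93), and 3782 in MyoD-/- limb and 2551 in WT limb (0.57). Acvrl1, a receptor of the endothelium, was 207 in the array labelled Myf5-/- back and 75 in WT back, at least 2.07-fold higher, but its second probe set was under 100 in both. Between the wild types 0 of 14 receptors were counted, with a median of -0.03. Other probe sets passed 2-fold where the main one did not for Bmpr1a, Acvr2b and Rgmb in the limb pair, for Bmpr1a and Rgmb in the back pair and for Bmpr1a, Rgmb and Eng between the wild types.

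The SMAD proteins, which carry the signal to the nucleus, had no member at 2-fold in any comparison by the main probe set. Their medians were 0.03 in the limb pair, -0.11 in the back pair and 0.34 for WT limb over WT back, over 8 genes each. Smad9 was 295 in MyoD-/- limb and 178 in WT limb (0.72), Smad7, an inhibitory SMAD, was 356 in the array labelled Myf5-/- back and 537 in WT back (-0.59), and Smad3 was 7593 in WT limb and 4097 in WT back (0.89). Dimmer probe sets passed 2-fold for Smad3, at 103 in MyoD-/- limb and 210 in WT limb (-1.03), and for Smad5, with 104 in WT limb against 224 in WT back (-1.11).

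Of the other secreted antagonists and modulators, 16 were measured in the limb pair, with 1 past 2-fold in each direction and a median of -0.06. Twsg1, which binds BMPs together with chordin, was 2421 in MyoD-/- limb and 1100 in WT limb (1.14). That reading can share probes with other transcripts, and dimmer probe sets of Twsg1 gave 0.72 and -0.66. Chordin itself, Chrd, was 139 in MyoD-/- limb and 279 in WT limb, which is just 2-fold lower. In the back pair 1 of 16 was counted, and the median was 0.05. It was Htra1, a secreted protease, at 375 in the array labelled Myf5-/- back and 929 in WT back (-1.31), with -0.61 in its second probe set. Between the wild types, Htra1 was 2676 in WT limb and 929 in WT back (1.53) and Sostdc1, an antagonist of skin and tooth buds, was 734 in WT limb and 296 in WT back (1.31). These were 2 of 17 genes higher by 2-fold, and 0 were lower, against 5.3% and 3.5% of all genes. Another probe set alone passed 2-fold for Chrdl1, Twsg1 and Crim1.

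Of the other ligands, a list that also holds the protease Bmp1 and the inhibin subunit Inha, 0 of 11 reached 2-fold in the limb pair, where the median was -0.33. Inhbb, an activin B subunit, was read in opposite ways there. By its main probe set it was at least 1.77-fold higher in MyoD-/- limb, with 177 there and 70 in WT limb. Its other probe set read 156 in MyoD-/- limb and 491 in WT limb (-1.65). A dimmer probe set of Inhba also passed 2-fold, at 23 in MyoD-/- limb and 227 in WT limb, with 24 in WT back. In the back pair 2 of 13 passed 2-fold upwards, against 5.5% of all genes, and the median was 0.27, against 0.05. The list median was 0.14 after loess, 0.03 with a floor of 200 and 0.05 as a median over all probe sets. All genes gave 0.01, 0 and 0.02 under these settings. Gdf2, a ligand that acts on blood vessels, was 410 in the array labelled Myf5-/- back and 137 in WT back (1.58), and Gdf3 was 208 against a WT back signal under 100, at least 2.08-fold higher. The second probe set of Gdf3 was under 100 in both arrays. Inhba, the activin A subunit, was 635 in the array labelled Myf5-/- back and 1123 in WT back (-0.82). Between the wild types Inhbb again gave opposite readings. By its main probe set it was at least 2.71-fold lower in WT limb, with 70 there and 271 in WT back, but its other probe set read 491 in WT limb and 96 in WT back. Of the 4 convertases that cleave the ligand precursors, Furin was 1105 in MyoD-/- limb and 2031 in WT limb (-0.88), and Pcsk6 gave -1.03 between the wild types, with 537 in WT limb against 1095 in WT back. It was the only convertase counted in any comparison.

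**Figure D4:**
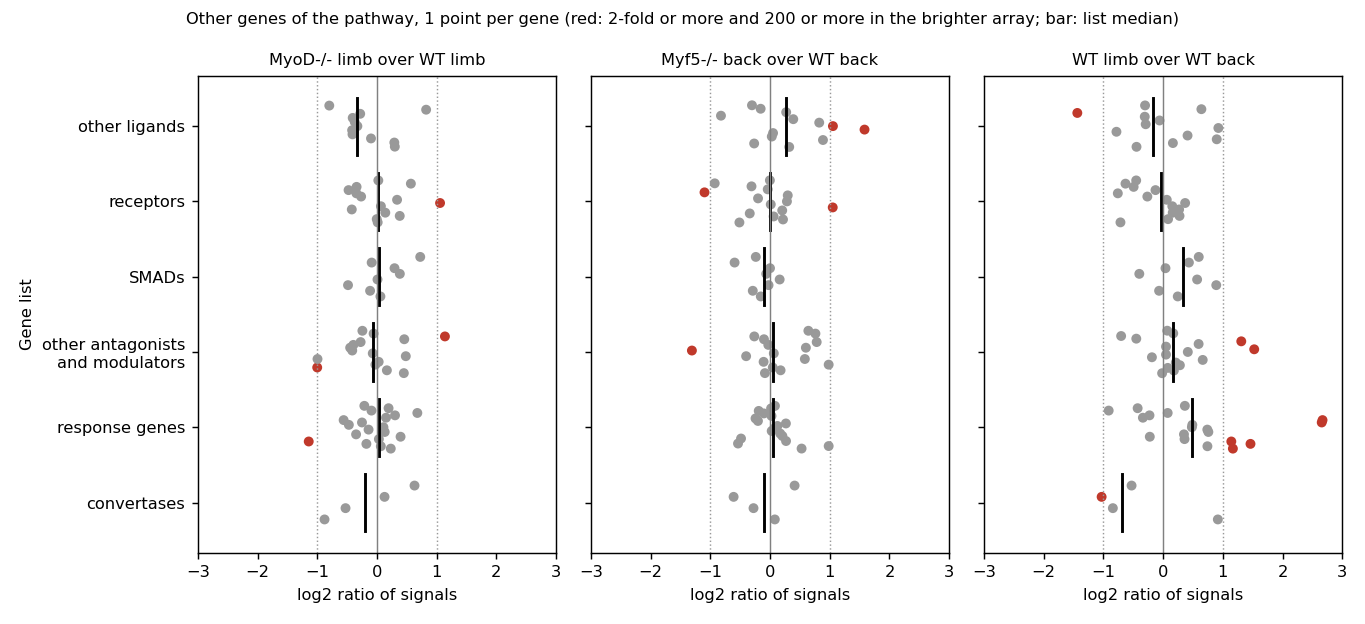
The log2 ratio of signals (x axis) of the other pathway genes by list (y axis) in the 3 comparisons, 1 point a gene, with red points at 2-fold or more and black bars at list medians. The response genes stand to the right between the wild types, with a median of 0.48 and 5 genes past 2-fold.

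Genes known to respond to BMP signalling had a higher list median between the wild types than in either mutant comparison; the difference was not tested. Of 19 response genes that reached 100 in WT limb or WT back, 14 were above 0, against 53.2% of all genes. Of the 19, 5 were at least 2-fold higher in WT limb and 0 at least 2-fold lower, beside 5.3% of all genes higher in WT limb. Dlx6, Dlx3 and Hey2, all among the 14, were under 100 in WT back, so their ratios are bounds. The median was 0.48, against 0.04 over all genes, and it lay between 0.36 and 0.49 over the alternatives tried. Msx1 and Msx2, homeobox genes of limb mesenchyme and skin, were the furthest apart. Msx1 was 2029 in WT limb and 322 in WT back (2.66), and Msx2 was 732 in WT limb and 115 in WT back (2.67), with 2.07 and 1.74 in their second probe sets. Dlx5 was 505 in WT limb and 183 in WT back (1.46), Dlx6 was 221 in WT limb and under 100 in WT back, at least 2.21-fold higher, and Bambi, a decoy receptor, was 759 in WT limb and 338 in WT back (1.17). Genes of the Id family, direct targets of the SMADs that hold back myogenic factors, did not reach 2-fold by their main probe sets. Id1 was 1348 in WT limb and 797 in WT back (0.76), and Id3 was 4165 in WT limb and 2981 in WT back (0.48). Id4 was read apart by its probe sets: the main one gave 717 in WT limb and 511 in WT back (0.49), another gave 740 in WT limb and 155 in WT back (2.26), and the third gave 0.57. Tbx2 was on the other side, with 791 in WT limb and 1487 in WT back (-0.91).

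In the mutant comparisons the median of the response genes was 0.03 in the limb pair, where 1 of 19 was at least 2-fold lower, Dlx6 at 97 in MyoD-/- limb and 221 in WT limb. It was 0.05 in the back pair, where 0 of 18 reached 2-fold. Id1 was 1475 in MyoD-/- limb and 1348 in WT limb, and 897 in the array labelled Myf5-/- back and 797 in WT back. A dimmer probe set of Id2 stood apart, at 566 in MyoD-/- limb and 34 in WT limb and at 307 in the array labelled Myf5-/- back and 43 in WT back, while the main probe set of Id2 gave -0.14 and 0.03. Another probe set alone also passed 2-fold for Gata2 in the limb pair and for Msx1 in the back pair.

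Markers of other cells differed between the wild types as well. Surface ectoderm markers summed to 13628 in WT limb and 8137 in WT back, with 9 of 10 at 100 or more in each. In the mutants they summed to 15490 in MyoD-/- limb and 10627 in the array labelled Myf5-/- back, above their wild types. In the limb pair 6 of 9 were above 0, and Krt18 (-0.75), Krt8 (-0.74) and Sp6 (-0.52) were below. In the back pair 8 of 9 were above 0. By the main probe set 0 reached 2-fold in either pair. Fgf8, the factor of the ridge at the limb tip, was under 100 in all 4 arrays. Muscle markers summed to 93255 in WT limb and 180424 in WT back, and nerve and Schwann cell markers to 3801 in WT limb and 6175 in WT back. Fetal liver and yolk sac markers summed to 769 in WT limb and 2736 in WT back, and to 331 in MyoD-/- limb. The 3 prime over 5 prime ratio of Gapdh was 12.2 in WT limb and 6.45 in WT back. What part these cells and this ratio have in the limb and back values was not tested.

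**Figure D5:**
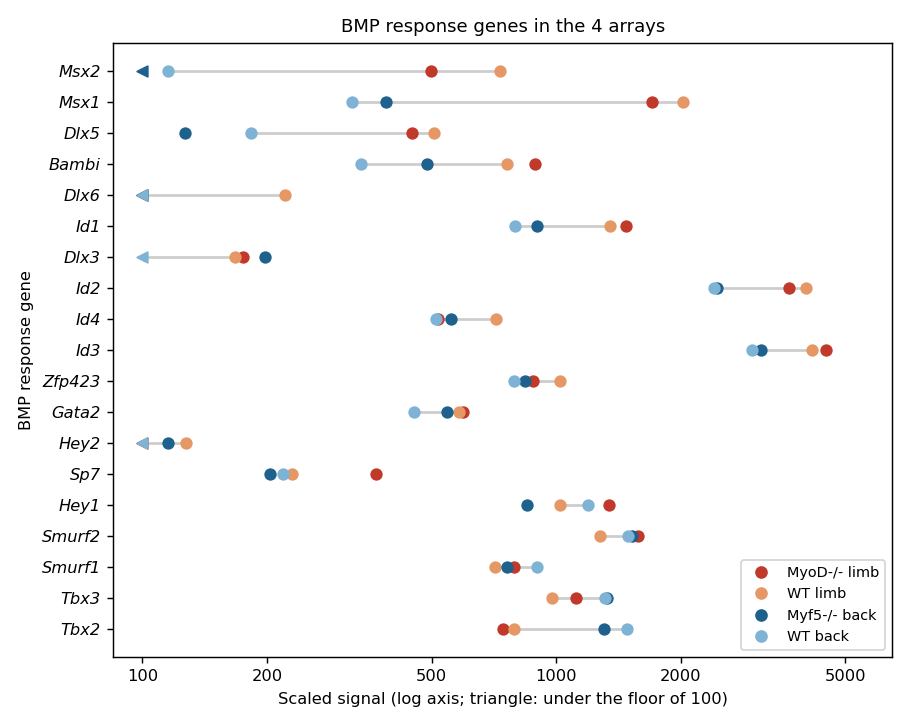
Scaled signal (x axis, log) of the BMP response genes (y axis) in MyoD-/- limb, WT limb, the array labelled Myf5-/- back and WT back, with triangles under the floor of 100 and grey lines between the wild types. For Msx1, Msx2, Dlx5 and Bambi the limb arrays (red and orange) lie to the right of the back arrays (blue), with Msx1 at 1705 and 2029 in the limb and 387 and 322 in the back.

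The genes with the pattern nearest to a member over the 4 arrays were found for the 3 members with the widest range, Gdf5, Grem1 and Gdf11. The measure was the largest difference, on the log2 scale, between mean-centred signals, among genes at 100 or more in the same arrays. For Gdf5 the nearest of 254 genes were Hoxa11os (0.42), Lhx9 (0.78) and Kcnab1 (0.81). Hoxa11os was 835 in MyoD-/- limb, 596 in WT limb, 158 in the array labelled Myf5-/- back and 30 in WT back. For Grem1 they were Dnaaf5 (0.06), Lcorl (0.06) and Fadd (0.07) among 10714 genes, and for Gdf11 Malt1 (0.04), Lgr6 (0.05) and Pnpla5 (0.11) among 321. With 4 arrays, such likeness is a description only.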

How the data were processed

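RNA was taken from dissected muscle with Trizol and labelled with biotin, per the labels' protocols. The deposited values are linear intensities for each probe set; the submitters' processing notes name MAS5, without a version. The 4 deposited columns had 2% trimmed means from 1477 to 1479, so each array had already been scaled to the same target. Of 45101 probe sets, 64 are controls, 34945 others have 1 gene symbol in the platform annotation, 932 have several and were not used, and 9160 are unnamed here.

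Columns were rescaled to a 2% trimmed mean of 500 (controls left out), a floor of 100 was applied, and ratios were computed on the log2 scale (Python 3.11.15, pandas 2.3.3). After rescaling, 56.0% of probe sets reached 100 in MyoD-/- limb and 61.4% in WT limb. In the back pair 63.6% did in the array labelled Myf5-/- back and 57.9% in WT back. What part this has in the ratios of dim genes was not tested. Groups came from the sample titles. Groups of 1 array allow no test; the steps were tested on simulated data. The members, gene lists, named-gene rule and 8 alternatives were chosen with earlier results of these data known. All members were named; of each list, up to 4 genes with the largest absolute ratio, plus those needed to show both directions, of which the text gives part. Genes of the response list that are discussed beyond this rule (Id1, Id2, Id3) were named after their values were seen. Promoter sequences are RefSeq's for GRCm38.p6; the commonest TATAAA position, -30 on plus-strand and -29 on minus-strand genes, was used to check that they run in the gene's direction.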

Additional observations from a re-analysis of the deposited data

Results flagged for a closer look

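Of the members, 5 had log2 ratios of opposite sign in the limb pair and the back pair, each beyond the median spread between probe sets of a gene in that pair. These were 5 of the 8 members measured in both pairs. Of all 13371 genes so measured, 57.9% had opposite signs and 15.3% had them with each ratio beyond that spread. The members were chosen with earlier results known, so nothing is read from these shares. The log2 ratio in the limb pair minus that in the back pair was 1.25 for Bmp5, 0.944 for Bmp7, -1.23 for Gdf11, 1.42 for Fst and -1.69 for Grem1. Each pair has 1 array per genotype, the mutated gene differs between the pairs, and the difference was not tested. The value for Gdf11 includes a MyoD-/- limb signal under the floor. After loess the log2 ratios of Gdf11 were -0.27 in the limb pair and 0.31 in the back pair. Each was then smaller than the median spread between probe sets in its pair. The second probe set of Bmp7 had the same sign in both pairs, -0.10 in the limb pair and -0.07 in the back pair, and that of Fst gave 0.14 in the limb pair and -0.19 in the back pair.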

How the results depend on the processing

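The number of members counted at 2-fold was 1 in each comparison and stayed at 1 in 20 of 24 repeats. In the limb pair it was 0 with a pseudocount of 100 and no floor, and 0 without probe sets that can share probes, since Grem1 has no other probe set. In the back pair it was 0 after loess and 0 with a floor of 200, where the lower signals of Gdf5 are set to the floor. Between the wild types it was 1 under all 8 alternatives. Of 213 repeats of single members' ratios, 201 moved by less than the median spread between probe sets; Gdf11 between the wild types changed sign (0.11, against -0.08 under quantile normalization and -0.10 after loess). Of 359 repeats of list medians, 336 moved by less than that spread. The median of the other ligands between the wild types was -0.18, and 0.18 as a median over all probe sets. No paired analysis was possible because each group has 1 array, and for the same reason no array could be left out. Low signals limit Gdf11, Nog and the WT back value of Gdf5.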
